A study of Mus musculus with 6 samples.

Results

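Malignant pre-B cells of Eμ-Myc mice were compared with premalignant pre-B cells of the same transgenic line, and the genes kept were those for which both malignant libraries lay on the same side of both premalignant libraries. Of 37991 gene identifiers counted, 16683 passed the filter on low counts and were tested, and 8519 of these (51.1%) met that condition, 4313 with higher and 4206 with lower malignant levels. A gene was then called changed when edgeR's quasi-likelihood test gave a false discovery rate (FDR, the Benjamini-Hochberg adjusted p) of at most 0.1 and the log2 fold change, malignant over premalignant, was at least 0.5 in size. These calls covered 1031 genes, or 6.18% of those tested, of which 623 (3.73%) were higher and 408 (2.45%) were lower in malignant cells. All 1031 met the condition on the libraries. Malignant cells gained RNA of Cpn1, Hepacam2, Foxf2, Lmna and S100a6, of the surface molecules Cd80, Cd86, Cd2 and Cxcr5, and of the metabolic genes Asns, Acacb and Scd1. They lost RNA of Col5a3, Rgs12, Mtap7 and Stag3, of the regulators Spib, Bach2, Sox4 and Il7r, and of 31 of 99 heavy-chain V genes.

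The premalignant mice (E{mu}Myc/+ heterozygotes, C57BL/6, aged 4 to 6 weeks) and the malignant mice (the same genotype and strain, aged 10 to 20 weeks, taken once a spontaneous lymphoma was established) each gave 2 libraries of polyadenylated RNA. Wild-type C57BL/6 mice aged 4 to 6 weeks gave 2 further libraries, which shared the estimate of spread and are given here as reference levels. Cells were sorted from bone marrow by surface protein as B220 high, IgM low and IgD low. Per the study's methods, the malignant cells were gated as B220+ IgM- IgD-, single animals were the replicates, wild-type and premalignant donors were female, and malignant donors were of either sex. Stage, age and gate therefore changed together and cannot be told apart, and the number of clones in each lymphoma is not given in the sources used here.

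The Eμ-Myc transgene places Myc, a transcription factor of growth and proliferation genes, under the immunoglobulin heavy-chain enhancer, which is active throughout the B lineage. Young carriers hold an expanded, polyclonal pool of B-cell precursors. Lymphomas arise later from single cells of that pool after further lesions, which in this model often involve Arf, p53 or members of the Bcl2 family. A pre-B cell has a rearranged heavy chain, is rearranging its light chains, depends on interleukin-7 and has not yet acquired the surface molecules of a mature B cell.

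Total counts ran from 30031100 to 53453055, and within each stage replicate 1 was the deeper library, so depth did not follow the stage. Cd79a, a signalling chain of the B-cell receptor that marks the B lineage, was at 802 and 867 CPM in premalignant and 732 and 834 CPM in malignant libraries, where CPM is the count relative to the TMM-normalized library size. Pairs of values below are replicates 1 and 2, and values joined by "then" or "to" go from premalignant to malignant cells. Of the 14 markers of B-lineage precursors, 10 had both malignant libraries below both premalignant ones and 1 was called lower. Their median log2 fold change was -0.881, with summed levels of 3530 and 3470 CPM and then 3210 and 2830 CPM. Over all tested genes, both malignant libraries were below both premalignant ones for 25.2% and above for 25.9%. Of 4 tested markers of mature or IgM-positive B cells, 2 had both malignant libraries above and 2 below, and edgeR called none, although 2 had an unadjusted p under 0.05 and DESeq2 called 2. Replicate libraries differed more at the malignant stage than at the others. The median absolute log2 difference between replicates over tested genes was 0.413 for malignant, 0.159 for premalignant and 0.258 for wild-type cells. Malignant library 1 stood apart in its sex-linked genes, with Xist at 1.72 CPM against 1908 to 2649 CPM in the other 5 libraries and Uty at 28.9 CPM against at most 0.963 CPM. Marker lists of several other bone marrow cells were lower in malignant libraries, and in bulk RNA fewer cells of a type and less RNA per cell cannot be told apart. The 12 neutrophil and myeloid markers summed to 383 and 408 CPM in premalignant and to 91.9 and 175 CPM in malignant libraries. The 11 erythroid markers went from 105 and 219 CPM to 74.1 and 90.9 CPM, and the 10 T and NK markers from 41.2 and 17.0 CPM to 4.79 and 14.5 CPM. The neutrophil gene S100a8 was at 71.7 and 68.4 CPM and then 18.4 and 26.9 CPM (edgeR FDR 0.115), and the 9 macrophage markers summed to 12.6 to 15.2 CPM in all 4 libraries. No marker on the erythroid, myeloid or T and NK lists was called by edgeR. On these lists 3 of 11, 8 of 12 and 3 of 10 had an unadjusted p under 0.05, and DESeq2 called 3, 7 and 1. Over all 16683 tested genes, 3313 had an unadjusted edgeR p under 0.05 and DESeq2 called 2113. The part of these cells in the results was not tested.

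How many genes were called depended on the libraries in the fit. Among the 8519 genes, the 1031 calls made up 12.1%. With only the 4 premalignant and malignant libraries, 258 genes (1.55%) were called, 194 higher and 64 lower, and 255 of them were among the 1031. Without premalignant replicate 1, and likewise without premalignant replicate 2, no gene passed, although 1486 and 1713 genes had an unadjusted edgeR p under 0.05. Without malignant replicate 1 there were 2676 calls and without malignant replicate 2 there were 3803. No called gene changed direction in any of these fits. The condition on the libraries, which all 1031 met, largely fixed this in advance, so it is no measure of stability. A set of 250 genes, 190 higher and 60 lower, was called in the fit of all 6 libraries and in 5 others (4 libraries alone, DESeq2, upper-quartile and RLE scaling, and a replicate block), and these are termed stable calls below. Upper-quartile scaling moved the split from 60.4% to 49.7% of calls higher in malignant cells and shifted the median of all genes by -0.0816 (log2). A fit that left out 1 library held a single library of that stage, so its spread came from the other stages. Numbers of calls in such fits are therefore not comparable with the 1031. The p-values measure the spread between these animals only.

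The largest rises among protein-coding genes of at least 10 CPM involved secreted and matrix proteins, nuclear and cytoskeletal structure, and transcription factors. Cpn1 (chromosome 19, 44030797 to 44061046, NCBIM37), the catalytic subunit of the plasma enzyme carboxypeptidase N, was at 0.0762 and 0.301 CPM in premalignant and 79.1 and 327 CPM in malignant libraries, a log2 fold change of 10.21 ± 1.03 (SE; edgeR FDR 0.0156). It was near the detection limit in wild-type cells as well, at 0.0876 and 0.1699 CPM. Both malignant libraries were far above the other 4, and malignant library 2 was the higher. Hepacam2, a cell adhesion protein of the immunoglobulin superfamily, went from 0.572 and 1.21 CPM to 133 and 112 CPM, a log2 fold change of 7.15 ± 0.43 (edgeR FDR 0.00985). Foxf2, a forkhead transcription factor best known from mesenchyme, was at 0 and 0.0566 CPM in wild-type, 0.6098 and 1.78 CPM in premalignant and 179.5 and 136 CPM in malignant libraries. Its levels were higher at each stage with no overlap, with a log2 fold change of 7.10 ± 0.59 from premalignant to malignant cells (edgeR FDR 0.0113).

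Lmna (chromosome 3, 88285070 to 88313878) encodes the A-type lamins, which stiffen the nuclear envelope and are usually low in lymphocyte precursors. It was at 1.14 and 1.96 CPM in premalignant and 67.9 and 129.6 CPM in malignant libraries, against 2.89 and 5.69 CPM in wild type, a log2 fold change of 6.01 ± 0.55 (edgeR FDR 0.0126). The calcium-binding protein gene S100a6 went from 6.19 and 9.55 CPM to 209 and 376 CPM (log2 5.22 ± 0.38, edgeR FDR 0.00985). Both genes reached malignant levels well above those of the other 2 stages. The intermediate filament gene Nes (nestin) was at 0.8003 and 2.41 CPM and then 38.6 and 59.1 CPM, and Eml1, a microtubule-binding protein, at 1.81 and 3.83 CPM and then 68.01 and 102 CPM. Vim (vimentin), among the most abundant genes called, rose from 722 and 775 CPM to 1669 and 1473 CPM (log2 1.07 ± 0.17, edgeR FDR 0.0354).

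Nid1 and Nid2, which link laminin and collagen in basement membranes, rose by log2 fold changes of 4.44 and 5.86. Nid2 was unequal in the malignant libraries, at 61.3 and 12.04 CPM, and it was not called with the 4 libraries alone. Itga1, the integrin chain that pairs with Itgb1 to bind collagen, was likewise called only with the wild-type libraries in the fit, at 0 and 0.1205 CPM and then 16.9 and 8.14 CPM. Zbtb32, a zinc-finger repressor of activated lymphocytes, was at 0.438 and 0.813 CPM and then 21.9 and 79.7 CPM. Bag3, a co-chaperone of Hsp70, was at 0.667 and 0.753 CPM and then 19.98 and 21.5 CPM, nearly equal in the replicates of each stage. Tlr1, a receptor for bacterial lipopeptides, was at 1.18 and 2.02 CPM and then 54.2 and 32.3 CPM, and the metallopeptidase gene Amz1 was at 2.096 and 2.29 CPM and then 48.9 and 31.4 CPM. The edgeR FDR of these 7 genes ran from 0.00985 to 0.0299. Only Chit1, the chitinase of activated macrophages, was at or under 3 counts in both premalignant libraries and at 5 CPM or more in both malignant ones, with 1 and 2 counts against 339 and 386. Set against a level of 3 counts in each premalignant library, it was at least 142-fold higher in malignant cells. The macrophage markers summed to no more in malignant than in premalignant libraries, and which cells gave the Chit1 reads was not tested.

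**Figure D1:**
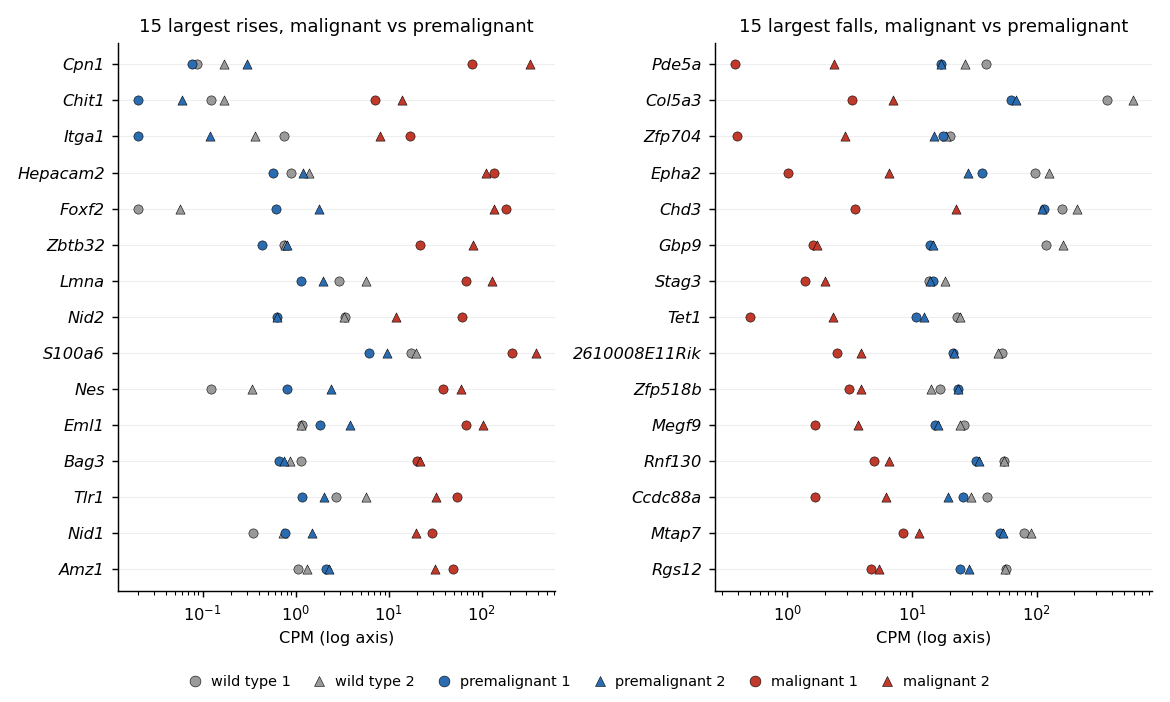
CPM on a log axis in each of the 6 libraries for the 15 largest rises (left) and the 15 largest falls (right) among called protein-coding genes with a mean of 10 CPM or more in their higher stage, circles for replicate 1 and triangles for replicate 2, with values under 0.02 CPM drawn at 0.02. In every row both red malignant points lie on one side of both blue premalignant points, and the grey wild-type points lie mostly on the premalignant side.

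The windows around the starts of these genes were searched for 3 short motifs. The motifs were CACGTG, the E-box bound by Myc with Max, TGANTCA (N is any base), bound by AP-1 factors, and CCGGAAG, bound by Ets factors, each on both strands of the 250 bases before and the 50 bases from the annotated gene start (NCBIM37). TGANTCA was present in 44 of 623 windows of called-higher genes (7.06%), in 15 of 408 of called-lower genes (3.68%) and in 888 of 16620 of all tested genes (5.34%). CACGTG was found in 8.83%, 10.8% and 8.68% of them, and CCGGAAG in 9.63%, 7.84% and 14.2%. Among the 15 largest rises, 3 windows held TGANTCA, and they are printed as examples of windows that share a motif, while the windows of Lmna, S100a6 and Tlr1 held CACGTG. The match starts 52 bases before the start of Chit1, 9 before that of Eml1 and 20 before that of Bag3. A match is a description of letters and no measured binding site. Capitals mark the match in each window, which runs 5′ to 3′ on the gene's own strand, the plus strand for all 3, at chr1:136007569-136007868 (Chit1), chr12:109608917-109609216 (Eml1) and chr7:135666847-135667146 (Bag3).
Chit1: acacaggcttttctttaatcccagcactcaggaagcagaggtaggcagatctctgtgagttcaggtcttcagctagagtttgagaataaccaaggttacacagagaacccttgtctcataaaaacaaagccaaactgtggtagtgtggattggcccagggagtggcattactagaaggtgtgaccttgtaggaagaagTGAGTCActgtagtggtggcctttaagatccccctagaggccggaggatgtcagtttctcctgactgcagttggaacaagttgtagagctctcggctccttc
Eml1: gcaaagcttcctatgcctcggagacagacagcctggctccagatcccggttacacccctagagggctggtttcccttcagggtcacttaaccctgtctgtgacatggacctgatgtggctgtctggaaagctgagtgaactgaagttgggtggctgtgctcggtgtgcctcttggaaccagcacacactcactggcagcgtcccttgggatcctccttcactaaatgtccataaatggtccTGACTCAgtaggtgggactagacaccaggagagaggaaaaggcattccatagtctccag
Bag3: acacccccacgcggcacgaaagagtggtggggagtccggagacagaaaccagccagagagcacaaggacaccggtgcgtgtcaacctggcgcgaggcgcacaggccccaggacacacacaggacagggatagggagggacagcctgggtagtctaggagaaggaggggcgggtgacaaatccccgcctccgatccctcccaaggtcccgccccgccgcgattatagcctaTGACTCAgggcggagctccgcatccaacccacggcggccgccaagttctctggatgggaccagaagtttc

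The largest falls were taken, like the rises, among protein-coding genes with a mean of 10 CPM or more in one stage, and genes at lower levels, such as those of the Hox and germline lists below, fell further on the fitted log2 scale. Col5a3, a fibrillar collagen chain, was at 366 and 587 CPM in wild-type, 62.3 and 68.6 CPM in premalignant and 3.31 and 6.99 CPM in malignant libraries, a further log2 fold change of -3.69 ± 0.41 at transformation (edgeR FDR 0.0199). Its level was lower at each stage with no overlap between stages. Gbp9, a guanylate-binding protein with close paralogs that can share its reads, had the same order, at 118 and 162, 14.04 and 14.7 and 1.59 and 1.72 CPM (log2 -3.12 ± 0.21, edgeR FDR 0.00985). Stag3, the cohesin subunit of meiosis, was at 13.8 and 18.4 CPM in wild type and 14.6 and 13.8 CPM in premalignant cells and fell to 1.38 and 2.01 CPM (edgeR FDR 0.0156). The premalignant values of Stag3 overlapped those of wild type, and both malignant values were far below them.

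Rgs12, which shortens G-protein signals, went from 24.1 and 28.4 to 4.69 and 5.41 CPM, and Mtap7, a microtubule-associated protein, went from 50.8 and 53.8 to 8.47 and 11.3 CPM. Rnf130, a ubiquitin ligase, went from 32.7 and 34.6 to 4.98 and 6.56 CPM, and the zinc-finger gene Zfp518b went from 23.5 and 23.1 to 3.12 and 3.91 CPM. These 4 had close replicate values at both stages and log2 fold changes of -2.38, -2.41, -2.55 and -2.73, with edgeR FDR from 0.00985 to 0.0113. The unnamed gene 2610008E11Rik fell in the same way, from 21.1 and 21.8 to 2.51 and 3.87 CPM. Other large falls were less even between the malignant libraries and were not called with the 4 libraries alone. Among them were Tet1, which oxidizes methylcytosine, at 10.7 and 12.3 and then 0.502 and 2.33 CPM, Chd3, a remodeller of the NuRD complex, at 115 and 110.1 and then 3.51 and 22.6 CPM, and Epha2, an ephrin receptor, at 36.7 and 27.8 and then 1.004 and 6.49 CPM. Pde5a, Zfp704, Megf9 and Ccdc88a belonged to the same group, with log2 fold changes of -3.70, -3.36, -2.59 and -2.55. In each of these 7 genes malignant library 1 held the lower value, and the edgeR FDR ran from 0.0328 to 0.0992.

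Myc itself, the target of the transgene, was at 33.8 and 41.4 CPM in wild-type, 1164 and 1155 CPM in premalignant and 1732 and 1578 CPM in malignant libraries. Counts of the transgene and of the endogenous gene were not separated. Both malignant values were above both premalignant ones, but the log2 fold change of 0.51 ± 0.16 was not called (edgeR FDR 0.161). Of the 13 tested genes of the Myc network, none was called higher and 3 were called lower, against 6.18% called over all genes. These were Mycn, at 0.381 and 0.452 and then 0.0418 and 0 CPM, and the Max partners Mxd3, at 40.1 and 41.3 and then 15.5 and 18.4 CPM, and Mxd4, at 162 and 158 and then 114 and 89.5 CPM. Mxd proteins compete with Myc for Max, and of the 3 genes Mxd3 was a stable call.

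Regulators of p53 showed no edgeR call among 11 tested genes, of which 1 had an unadjusted p under 0.05, and no DESeq2 call. Over all 16683 tested genes, 3313 had such an edgeR p and DESeq2 called 2113. Cdkn2a, the source of Arf and p16, was at 4.13 and 5.604 CPM in premalignant and 0.293 and 8.82 CPM in malignant libraries, so the malignant libraries lay on opposite sides of the premalignant ones. Trp53 was at 297 and 273 CPM and 242 and 272 CPM (log2 -0.15 ± 0.13, edgeR FDR 0.605). Of 29 direct p53 targets, 1 rose and 2 fell, against 3.73% and 2.45% of all tested genes. Pmaip1 (Noxa) rose, while Trp53inp1, at 360.3 and 391.5 and then 217 and 168 CPM, and Rrm2b, at 114 and 124 and then 80.7 and 63.8 CPM, fell.

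The Bcl2 family, which sets the threshold for mitochondrial apoptosis, had 3 genes called higher and 2 lower of 17 tested. Over all tested genes 3.73% were called higher and 2.45% lower. Bcl2 was at 4.36 and 3.22 CPM in premalignant and 50.2 and 15.99 CPM in malignant libraries, a log2 fold change of 3.12 ± 0.57 (edgeR FDR 0.0519), and both wild-type libraries lay between the 2 stages. The prosurvival genes Bcl2l1 and Bcl2l2 fell, Bcl2l1 (Bcl-xL) from 20.1 and 20.2 to 9.71 and 10.6 CPM and Bcl2l2 (Bcl-w) from 6.88 and 7.17 to 0.711 and 1.65 CPM. Mcl1, another prosurvival gene, was at 313 and 309.9 and then 354 and 362 CPM and was not called (edgeR FDR 0.424). For Bcl2l1 the fall followed a larger difference between wild-type and premalignant cells, as the wild-type libraries were at 169 and 177 CPM. The proapoptotic genes Pmaip1, at 4.897 and 6.81 and then 17.1 and 38.2 CPM, and Bid, at 60.5 and 66.6 and then 107 and 148 CPM, rose. None of these 5 was called with the 4 libraries alone, and Bcl2 lies on chromosome 1, which was raised as a whole in malignant library 1 as described below.

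Of 27 cyclins, kinases and inhibitors of G1, 2 rose and 1 fell, against 3.73% and 2.45% of all tested genes. Both malignant libraries were below both premalignant ones for 14 of them and above for 3, against 25.2% and 25.9%. The median log2 fold change was -0.213. Ccnd1, a D-type cyclin that carries growth signals into G1, was at 32.5 and 50.6 CPM and then 236 and 170.4 CPM (log2 2.29 ± 0.36, edgeR FDR 0.0363), a stable call, and Ccnd2 was at 11.8 and 11.3 CPM and then 37.7 and 86.3 CPM. The remaining D-type cyclin, Ccnd3, was at 329.8 and 279.5 CPM and then 74.4 and 217 CPM and was not called (edgeR FDR 0.273). E2f2, a transcription factor of S phase, fell from 556 and 591 to 337 and 359 CPM. Of 47 genes of mitosis and the spindle checkpoint, 39 had both malignant libraries below both premalignant ones, against 25.2% of all tested genes, and none had both above. Their median log2 fold change was -0.457, against 0.0431 over all genes, but only Cdc25b was called. Cdc25b, a phosphatase that activates Cdk1, went from 423 and 458 to 99.4 and 136 CPM (log2 -1.90 ± 0.18, edgeR FDR 0.0142). Ccnb1, a mitotic cyclin of the same list, was at 196 and 215 and 155 and 152 CPM (edgeR FDR 0.393). Among 43 genes of the DNA replication machinery edgeR and DESeq2 called none, and 4 had an unadjusted edgeR p under 0.05. Among 49 of DNA break repair and checkpoints edgeR called none, 9 had an unadjusted p under 0.05 and DESeq2 called 3. Over all 16683 tested genes, 3313 had such an edgeR p and DESeq2 called 2113. Both malignant libraries were below both premalignant ones for 16 of the 43 and 22 of the 49, against 25.2% of all tested genes. They were above for 4 and 7, against 25.9%.

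Transcription factors of the B lineage had a median log2 fold change of -0.297, against 0.0431 over all genes. Of 47 tested, 5 fell and none rose, against 2.45% and 3.73% of all tested genes. Both malignant libraries were below both premalignant ones for 24 genes and above them for 9, against 25.2% and 25.9% of all tested genes. Spib, an Ets factor of B cells and plasmacytoid dendritic cells, was at 1585 and 1726 CPM in wild-type, 754 and 750.1 CPM in premalignant and 383 and 410.4 CPM in malignant libraries (log2 -0.92 ± 0.14, edgeR FDR 0.0348). Bach2, which restrains plasma cell differentiation, was at 1085 and 1071, 469.8 and 442 and 232 and 154 CPM (log2 -1.24 ± 0.21, edgeR FDR 0.0456). Both genes were lower at each successive stage. Sox4, a factor that progenitor B cells need, went from 137 and 138 to 14.7 and 41.3 CPM, and Meis1, a homeobox factor of early progenitors, from 4.21 and 3.92 to 0.272 and 1.004 CPM. The founding factors Ebf1, at 204 and 194 and 160.4 and 123 CPM, and Pax5, at 164 and 185 and 139 and 126 CPM, had lower malignant values and were not called (edgeR FDR 0.177 and 0.346). Of these, Spib alone was a stable call.

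Il7r, the receptor for the growth factor of precursor B cells, was at 495 and 397 CPM in wild-type, 100 and 71.5 CPM in premalignant and 29.5 and 41.6 CPM in malignant libraries, a log2 fold change of -1.27 ± 0.25 at transformation (edgeR FDR 0.0608). Stat4 also fell, from 2.46 and 1.78 to 0.126 and 0.538 CPM. Thus 2 of 24 genes of the interleukin-7 and JAK-STAT list fell and 1, Bcl2, rose, against 2.45% and 3.73% of all tested genes. The surrogate light chains, which form the pre-B receptor, were nearly absent from malignant library 1. Vpreb1 was at 9.74 and 4.88 and then 0.146 and 4.05 CPM and Igll1 at 18.8 and 9.58 and then 0.167 and 7.56 CPM, and neither was called (edgeR FDR 0.389 and 0.424). The recombinase genes were lower without being called, with Rag1 at 329 and 286 and then 154 and 56.8 CPM and Rag2 at 44.8 and 43.4 and then 25.6 and 8.64 CPM. Lig4, which joins the cut ends, fell from 82.2 and 80.05 to 47.6 and 31.9 CPM. It was the only gene called among 14 of V(D)J recombination, against 6.18% of all tested genes. Within the signalling part of the receptor, Cd72, an inhibitory coreceptor, fell from 299 and 250.4 to 98.6 and 109.5 CPM (log2 -1.40 ± 0.21, edgeR FDR 0.0322), and the adaptor Pik3ap1 (BCAP) fell from 211 and 175 to 101 and 75.03 CPM. Bcap29, a receptor-associated protein of the endoplasmic reticulum, rose from 55.5 and 73.2 to 141 and 139 CPM. The phosphatase Ptpn6 (SHP-1), which dampens antigen receptor signals, rose from 181 and 196 to 280.3 and 275 CPM. Cd72 and Bcap29 were stable calls.

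Calls among surface markers of B-cell stage went in the other direction, with 7 of 38 called higher and none lower, against 3.73% and 2.45% of all tested genes. Both malignant libraries were above both premalignant ones for 12 of the 38 and below for 8, against 25.9% and 25.2%. The median log2 fold change of the list was 0.129. The T-cell costimulatory ligands Cd80 and Cd86, typical of activated B cells, were at 0.705 and 1.02 and 2.496 and 3.86 CPM in premalignant libraries and at 5.67 and 5.59 and 21.00 and 15.4 CPM in malignant libraries. Their log2 fold changes were 2.71 ± 0.37 (edgeR FDR 0.0282) and 2.52 ± 0.34 (edgeR FDR 0.0254), and the malignant replicates were close. Cd2, an adhesion molecule whose surface level rises at the pre-B stage, went from 30.4 and 43.4 to 199.8 and 130.4 CPM, and Cd52, a surface glycoprotein of mature lymphocytes, from 25.5 and 23.6 to 73.9 and 126 CPM. Cd38, an ectoenzyme, went from 29.9 and 37.4 to 128 and 81.8 CPM. For Cd2, Cd52 and Cd38 the premalignant stage was the low point, as wild-type cells were at 75.3 and 97.2, 93.9 and 94.1 and 201 and 232 CPM. Ms4a1 (CD20), a marker of mature B cells, had lower malignant values, at 180.3 and 232 and then 30.04 and 78.2 CPM, and was not called (edgeR FDR 0.112). Cd274 (PD-L1) and Ly6e were the other members called higher, and Cd80, Cd86, Cd2 and Cd52 were stable calls.

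Of 38 genes of homing, adhesion and egress, 4 were called higher and none lower, against 3.73% and 2.45% of all tested genes. Both malignant libraries were above both premalignant ones for 12 of them and below for 7, against 25.9% and 25.2%. Cxcr5, the chemokine receptor that draws B cells into follicles, was at 6.099 and 8.72 CPM in wild-type, 2.65 and 3.25 CPM in premalignant and 17.5 and 15.5 CPM in malignant libraries (log2 2.49 ± 0.30, edgeR FDR 0.0226). The integrin chains Itga5, from 5.49 and 5.27 to 28.1 and 17.6 CPM, and Itgb1, from 94.99 and 96.6 to 190.2 and 188 CPM, together form the fibronectin receptor, and both were stable calls. Itgb7, a chain of the gut-homing integrin, was at 33.5 and 33.6 and then 103 and 376 CPM, higher in both malignant libraries but by unequal amounts.

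Genes of MHC class II presentation had 4 calls higher and 1 lower among 16 tested, against 3.73% and 2.45% of all tested genes, and a median log2 fold change of 0.587. Both malignant libraries were above both premalignant ones for 6 of the 16 and below for 3, against 25.9% and 25.2%. The list summed to 2120 and 2240 and then 2490 and 4750 CPM, with the larger rise in malignant library 2. H2-Eb2 was at 15.6 and 17.4 and then 56.6 and 46.7 CPM and was a stable call, as far as reads of this gene can be told from those of its close relatives. H2-DMb1, which loads peptides onto class II molecules, rose from 14.6 and 15.2 to 32.2 and 49.1 CPM, and its inhibitor H2-Ob fell from 148 and 149.7 to 97.1 and 74.7 CPM. The lysosomal proteases and reductases of antigen processing rose with them, with Ctss (cathepsin S) at 59.5 and 68.8 and then 141 and 150.1 CPM and Ifi30 at 85.96 and 66.4 and then 325 and 204 CPM. Cd74, the invariant chain, was at 848 and 877 and then 1054 and 2346 CPM and was not called (edgeR FDR 0.205). H2-Aa was at 209.2 and 230.5 and then 215.4 and 495.4 CPM, so its stages overlapped, and it was not called (edgeR FDR 0.353). Of 24 genes of MHC class I presentation, 2 rose, H2-Q7 and Psme2, and none fell, against the same 3.73% and 2.45%. Both malignant libraries were above both premalignant ones for 14 of the 24 and below for none, against 25.9% and 25.2%. The median log2 fold change of this list was 0.24.

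**Figure D2:**
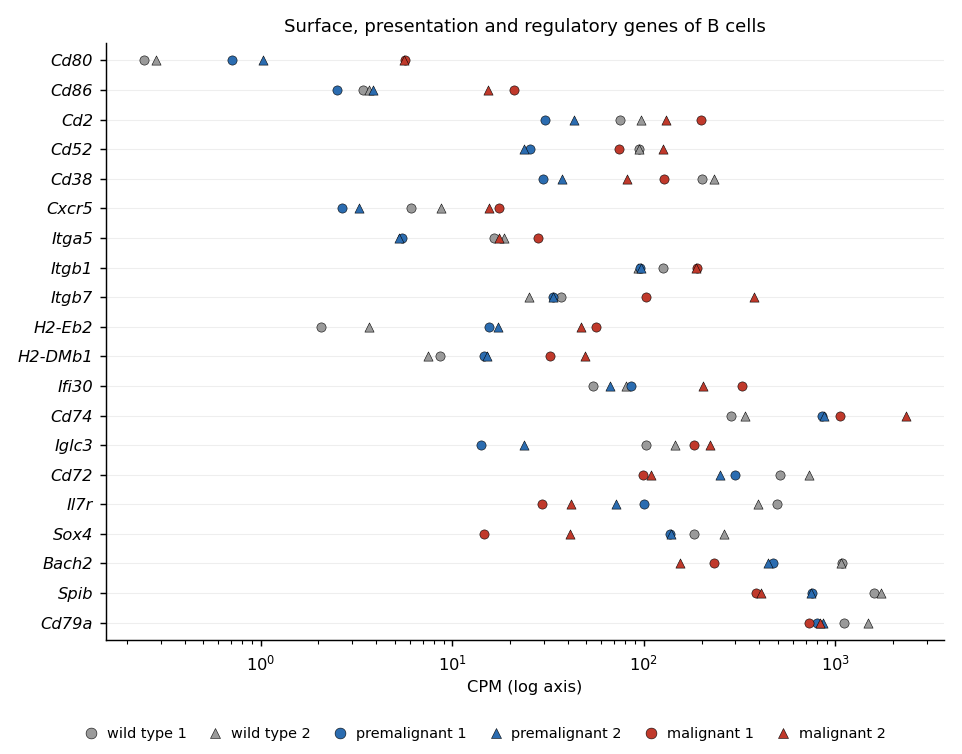
CPM on a log axis in each of the 6 libraries for genes of B-cell surface, antigen presentation and B-lineage regulation, circles for replicate 1 and triangles for replicate 2. Red malignant points lie above both blue premalignant points from Cd80 to Iglc3, below them from Cd72 to Spib, and among them or close by for the B-lineage gene Cd79a.

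Immunoglobulin transcripts separated the malignant libraries from each other. Over 112 annotated heavy-chain V genes, premalignant libraries held 12779 and 8650 counts, of which the leading V gene took 708 and 533. Malignant library 2 held 7526 counts, of which Ighv14-3 (chromosome 12, from 115298056) took 6048, or 80.4% (95% Wilson interval 79.4% to 81.2%, for counting error only). Malignant library 1 held 139 counts in all, 2.91 CPM against 244 and 261 CPM in premalignant libraries, while Ighm, the constant region of the mu chain, was at 2379 and 4058 CPM in the malignant and 2699 and 3049 CPM in the premalignant libraries. In malignant library 2 the heavy-chain V genes summed to 270 CPM, which was not below the premalignant sums. Of 99 heavy-chain V genes tested, 31 fell and none rose, against 2.45% and 3.73% of all tested genes. These genes supplied most of the 35 falls among 216 immunoglobulin genes tested. Kappa V genes were not concentrated, as the leading gene took 264 of 2434 and 210 of 1501 counts in malignant libraries and 233 of 1845 and 173 of 1389 in premalignant ones. The lambda constant gene Iglc3 rose from 14.1 and 23.7 to 184 and 221 CPM (log2 3.42 ± 0.32, edgeR FDR 0.0126), with wild-type cells at 102 and 146 CPM. Close copies of these genes can share reads, so values of single segments are uncertain.

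Of 50 interferon-stimulated genes tested, 7 fell and 2 rose, against 2.45% and 3.73% of all tested genes. Both malignant libraries were below both premalignant ones for 27 of them and above for 6, against 25.2% and 25.9% of all tested genes. The antiviral sensors and effectors Oasl1, from 2.36 and 3.67 to 0.418 and 0.502 CPM, Rtp4, from 1.73 and 2.08 to 0.272 and 0.323 CPM, and Zbp1, from 1.31 and 1.597 to 0.126 and 0.4302 CPM, fell, as did Irf7, the master factor of this response, from 5.602 and 6.66 to 1.11 and 2.47 CPM. These genes had been higher in wild-type cells, where Oasl1 was at 12.8 and 17.6 CPM and Irf7 at 37.1 and 28.1 CPM. All were low in absolute level at both transgenic stages, and none of the 9 genes called in this list was called with the 4 libraries alone. The summed level of the list, which its abundant members set, went the other way, from 2000 and 2050 CPM to 2280 and 2630 CPM. Markers of plasmacytoid dendritic cells, which make interferon, summed to 64.1 and 31.1 CPM in premalignant and to 8.03 and 39.8 CPM in malignant libraries, and their part in these changes was not tested.

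In the list of Ras-MAPK and PI3K-mTOR regulators, 4 of 43 genes fell and 1 rose, against 2.45% and 3.73% of all tested genes, with a median log2 fold change of 0.00679. Both malignant libraries were below both premalignant ones for 13 genes and above them for 9, against 25.2% and 25.9% of all tested genes. Spry2, a feedback inhibitor of receptor tyrosine kinases, fell from 2.57 and 1.93 to 0.167 and 0.358 CPM and Rasgrp3, a Ras activator downstream of antigen receptors, from 2.06 and 1.51 to 0.439 and 0.4302 CPM. Tsc2, which restrains mTOR complex 1, fell from 68.2 and 68.2 to 40.7 and 39.3 CPM, and Pik3cg from 111 and 118 to 79.3 and 60.5 CPM. Spred1, another inhibitor of the Ras pathway, was the gene that rose, from 7.66 and 5.72 to 48.5 and 27.7 CPM (log2 2.51 ± 0.34, edgeR FDR 0.0271), and was the one stable call of the list. Of 46 Notch, Wnt and TGF-beta components, 5 fell and 1 rose, with a median of 0.0679. Lrp5, a Wnt coreceptor, went from 25.7 and 23.5 to 4.96 and 7.03 CPM (edgeR FDR 0.0225), Fzd6, a Wnt receptor, from 2.76 and 4.79 to 0.0837 and 0.538 CPM, and Eng, a TGF-beta coreceptor and endothelial marker, from 2.78 and 2.71 to 0.167 and 0.645 CPM, while Bmpr1a rose from 0.0953 and 0.301 to 12.7 and 3.84 CPM. Of 31 genes of the NF-kB list 2 rose and none fell, among them the protease Malt1, which connects antigen receptors to NF-kB, from 62.5 and 60.5 to 87.9 and 117 CPM. Of 31 immediate-early genes, which answer a stimulus within minutes, 3 rose and 1 fell, and of these Dusp5, a phosphatase of ERK, was the stable call, at 27.1 and 28.8 and then 69.7 and 61.3 CPM.

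Among metabolic genes, those of amino acid supply stood at 6 rises and no fall of 32 tested, against 3.73% and 2.45% of all tested genes. Asns, asparagine synthetase, was at 1.72 and 4.79 CPM in wild-type, 16.4 and 21.4 CPM in premalignant and 86.2 and 77.4 CPM in malignant libraries, a log2 fold change of 2.11 ± 0.44 at transformation (edgeR FDR 0.0683). Slc7a5 and Slc3a2, the chains of the large neutral amino acid transporter, rose from 194 and 215 to 379.5 and 313 CPM and from 102 and 107 to 178 and 159 CPM. Phgdh, which opens serine synthesis, rose from 287 and 288 to 458 and 573 CPM, and Glud1 and Shmt2 completed the list of calls. All 6 were higher in premalignant than in wild-type cells in mean level, and Asns was the stable call.

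Sterol and fatty acid synthesis had 5 rises and no fall among 36 genes, against 3.73% and 2.45% of all tested genes. Acacb, the mitochondrial acetyl-CoA carboxylase, went from 1.58 and 4.25 to 32.9 and 35.2 CPM (log2 3.56 ± 0.50, edgeR FDR 0.0282). The desaturases Scd1, from 77.2 and 79.96 to 319 and 199 CPM, and Scd2, from 300.2 and 214 to 649 and 528 CPM rose as well. Lysosomal genes had 6 calls higher and none lower among 38, against the same 3.73% and 2.45%. Both malignant libraries were above both premalignant ones for 16 of them and below for 10, against 25.9% and 25.2%, with a median log2 fold change of 0.107. Ctsb (cathepsin B) was at 312 and 289 CPM in wild-type, 96.9 and 92.9 CPM in premalignant and 203 and 206 CPM in malignant libraries. For Ctsb the premalignant level was the lowest of the 3 stages. In glycolysis 3 of 28 genes rose and 1 fell, against the same 3.73% and 2.45%. Eno1 rose from 488 and 523 to 1158 and 1266 CPM (log2 1.26 ± 0.14, edgeR FDR 0.0199), Gapdh from 883 and 911 to 1446 and 1296 CPM and the neuronal enolase Eno2 from 0.114 and 0.0301 to 5.98 and 2.796 CPM, while Pfkfb3, which makes the activator of phosphofructokinase, fell from 153 and 136 to 98.95 and 100.3 CPM. Eno1 and Gapdh have many processed copies in the genome, which can take or lend reads.

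The gene groups best known as direct Myc targets are given beside all tested genes, of which 3.73% were called higher and 2.45% lower. Cytosolic ribosomal protein genes had 2 rises of 78, Rps24 and Rpl37, and ribosome biogenesis factors 1 of 69, Gnl3, at 42.9 and 42.4 CPM in wild-type, 293 and 288 CPM in premalignant and 645 and 450.2 CPM in malignant libraries. Both lists nonetheless leaned upward, with 39 of 78 and 43 of 69 genes above both premalignant libraries in both malignant ones, against 25.9% of all tested genes, and medians of 0.267 and 0.231. The sum over the cytosolic ribosomal protein genes was unequal in the malignant libraries, at 112000 and 87800 CPM against 80800 and 80000 CPM in premalignant libraries. Oxidative phosphorylation had 1 call in 81 genes, Cox6b2, which fell, and mitochondrial ribosomal proteins 2 in 75, Mrps12 and Mrpl52, which rose. Neither edgeR nor DESeq2 called any of 56 splicing genes or 12 of polyamine synthesis. In these lists 3 and 3 genes had an unadjusted edgeR p under 0.05, against 3313 of all 16683 tested genes. Nucleotide and folate synthesis had 3 rises and 1 fall among 33 genes, led by the adenine salvage enzyme Aprt, from 70.9 and 66.5 to 126 and 129 CPM.

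Shares of called genes differed among the lists of chromatin and nuclear organization, against 6.18% of all tested genes. They were 10.7% for genome architecture, 8.33% for telomere, 25.0% for germline and 20.0% for Hox genes. For histones the share was 3.23%, and each of these lists had 3 calls or fewer. Of 28 genes of genome architecture, 16 had both malignant libraries below both premalignant ones and 4 had both above, with a median log2 fold change of -0.237. For 12 telomere genes the counts were 8 and 1. Over all tested genes the shares were 25.2% below and 25.9% above. In genome architecture, Lmna rose and Stag3 fell as described, and Wapal (chromosome 14, 35487114 to 35561169), which releases cohesin from chromatin, rose from 26.4 and 22.4 to 181 and 151 CPM (log2 2.77 ± 0.20, edgeR FDR 0.00985). These were 3 calls among 28 genes, all of them stable. Smarca4 (Brg1), the ATPase of the BAF complex, fell from 1279 and 1438 to 633 and 662 CPM (log2 -1.07 ± 0.17, edgeR FDR 0.0364) and was among the most abundant genes called lower, together with Cyfip2, from 1130 and 1262 to 798 and 706 CPM, and Bcl7a, another BAF subunit, from 771 and 672 to 440.3 and 434 CPM. The histone genes H2afv, from 149 and 150.5 to 85.2 and 81.3 CPM, and Hist3h2ba, from 2.73 and 3.62 to 0.4602 and 0.538 CPM, fell. Tert, the telomerase catalytic subunit, fell from 6.52 and 6.03 to 0.628 and 1.900 CPM, the 1 call among 12 telomere genes. Germline genes had 3 falls and no rise in 12 tested, led by Stag3 and the recombinase Dmc1, which went from 0.514 and 0.452 to 0.0209 and 0.0717 CPM. Of 10 Hox genes tested, Hoxb13 rose from no count to 0.628 and 0.717 CPM and Hoxa3 fell from 0.152 and 0.0904 CPM to no count. Bnip3, a mitophagy receptor induced by hypoxia, fell from 10.7 and 11.5 to 2.82 and 2.04 CPM, the 1 call among 21 hypoxia genes, and the nuclear exporter Xpo4 rose from 99.1 and 102 to 176 and 195 CPM.

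**Figure D3:**
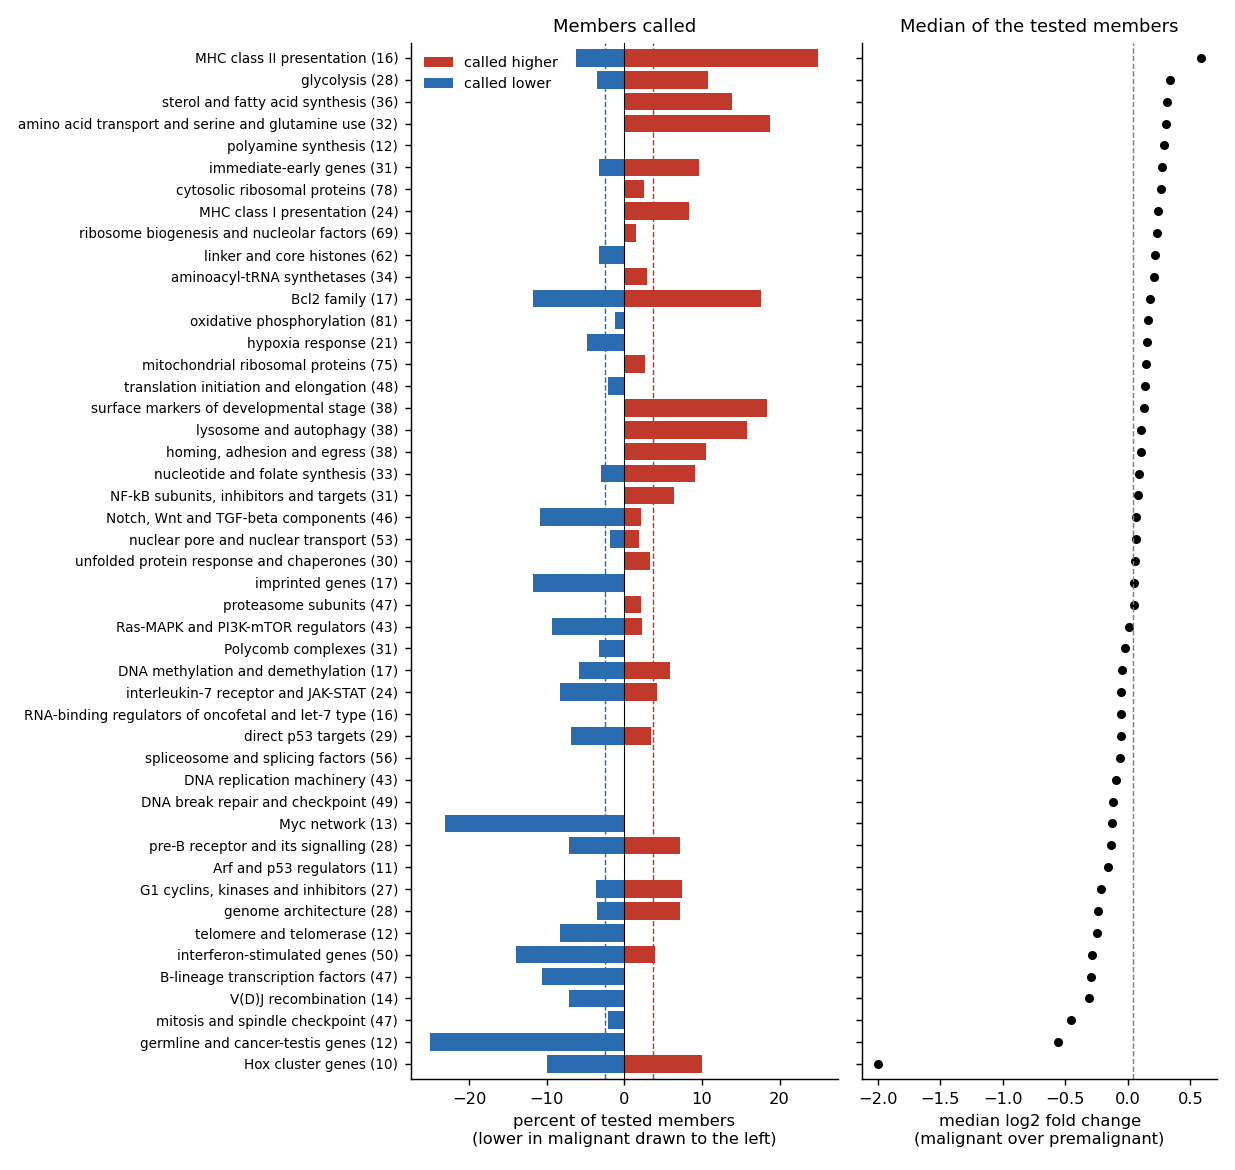
For 47 gene lists with at least 10 tested members (number in parentheses), the percentage of members called higher (red, to the right) or lower (blue, to the left) in malignant cells and, in the right panel, the median log2 fold change of the tested members. Dashed lines give all tested genes, 3.73% higher, 2.45% lower and a median of 0.0431. MHC class II presentation has the highest median, 0.587, and the 10 Hox genes, at very low counts, the lowest.

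Malignant levels differed by chromosome, a feature that the choice of genes did not use. Each malignant library was set against the premalignant mean, and the median log2 difference was taken over the tested genes of each chromosome. In malignant library 1 the median was 0.45 on chromosome 1 and 0.459 on chromosome 14, and between -0.114 and 0.04 on the other 18 chromosomes. In malignant library 2 it was between 0.28 and 0.363 on chromosomes 3, 6, 10, 12, 14, 15, 16 and 18, and between -0.213 and -0.063 on the other 12. The premalignant libraries differed from each other by -0.009 to 0.058 on every chromosome, and the wild-type libraries by -0.096 to 0.038. The difference on every raised chromosome was larger than that between replicates of the other stages on any chromosome. They were raised in both parts of each chromosome, as the genes of the first and the second part of each, in order of position, gave 0.434 and 0.472 on chromosome 1 in malignant library 1, and 0.333 and 0.32 on chromosome 15 in malignant library 2. Chromosomes 6 and 12 were less even in malignant library 2, at 0.196 and 0.319 and at 0.345 and 0.152, and chromosome 12 includes the heavy-chain V genes. DNA copy number was not measured in these files.

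Chromosome 14 was raised in both malignant libraries and was the only chromosome with that pattern. Of its 547 tested genes, 69.5% in malignant library 1 and 65.4% in malignant library 2 were above both premalignant libraries. It held 81 genes called higher (14.8% of its tested genes, against 3.73% over the genome) and 3 called lower. Wapal, Ctsb, Glud1, Gnl3, Rps24, Lcp1, Psme2, Xpo4, Bmpr1a and Nid2 are among the genes called higher that lie there. With each library's chromosome medians removed from the fit, 30 genes of chromosome 14 (5.48%) were called higher and 21 lower. The X chromosome had 3 genes called higher and 26 lower, and 14 and 18 with chromosome medians removed. Its median log2 difference from the premalignant mean was -0.114 in malignant library 1 and -0.213 in malignant library 2. Xist was near 0 in malignant library 1 as given above, and the part of donor sex in these calls was not tested. Leaving chromosome 14 out of the fit gave 901 calls, 535 higher and 366 lower, so most calls lay elsewhere.

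**Figure D4:**
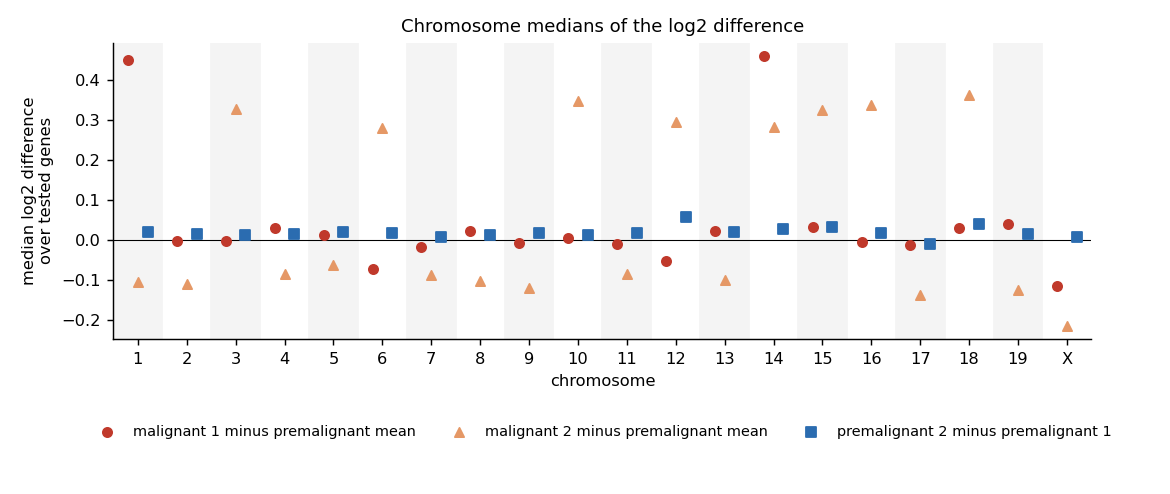
Median log2 difference over the tested genes of each chromosome, for malignant library 1 (circles) and malignant library 2 (triangles) against the premalignant mean, and for premalignant library 2 against premalignant library 1 (squares). Malignant library 1 stands out on chromosomes 1 and 14, malignant library 2 on 8 chromosomes, and the premalignant difference stays between -0.009 and 0.058.

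**Figure D5:**
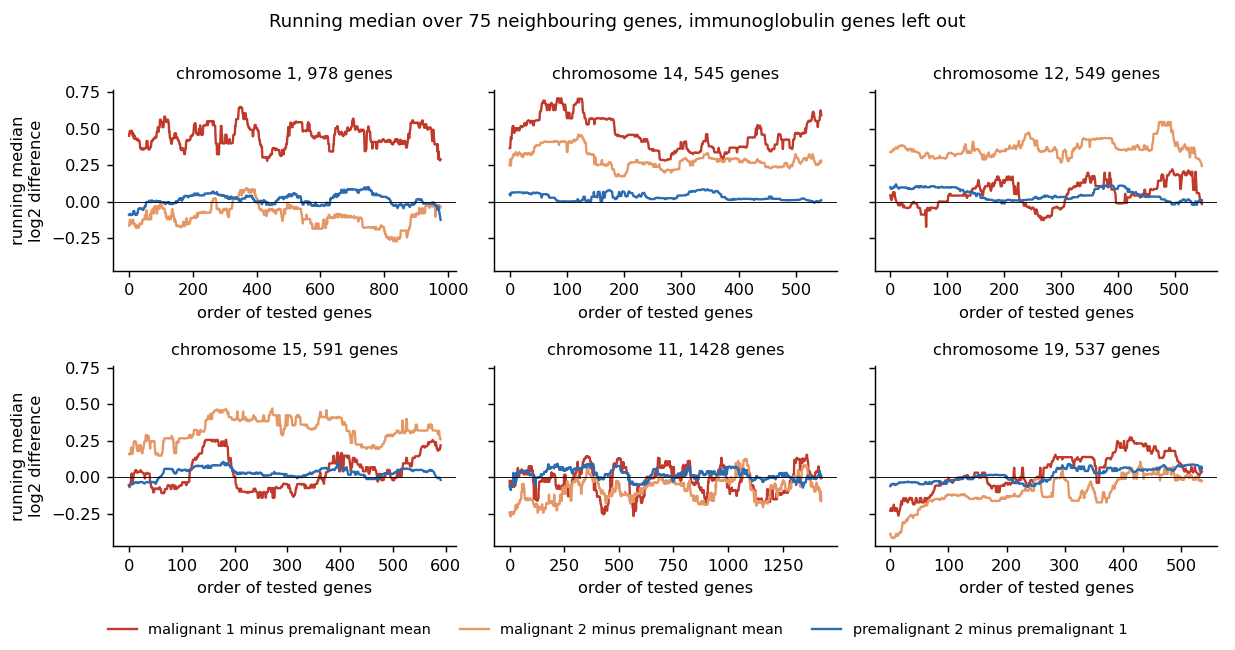
Running median of the log2 difference over 75 neighbouring tested genes in chromosome order, immunoglobulin genes left out, for 6 chromosomes, with the same 3 differences in red, orange and blue. The raised level spans the length of chromosomes 1 and 14 in malignant library 1 and of chromosomes 12, 14 and 15 in malignant library 2, while chromosomes 11 and 19 show no raised level from end to end.

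Genes called higher and lower were set beside all tested genes in level and build. The median level of genes called higher went from 12.1 to 36.3 CPM and that of genes called lower from 6.14 to 1.32 CPM. The median log2 fold change was 1.48 for rises and -2.13 for falls, and 106 rises and 111 falls reached 3 in size. The median exon length was 3520 bases for rises and 3730 for falls, against 3100 over all genes tested, and the median GC content was 51.5% and 49.4%, against 49.6%.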

How the data were processed

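RNA-seq libraries of sorted bone marrow pre-B cells, 2 each from wild-type, premalignant and malignant mice, were analysed from the gene counts the authors deposited. Per the labels, the RNA was polyadenylated and libraries were made with the TruSeq RNA kit v2, which does not mark strand. Per the study's methods, reads were single-end, aligned with TopHat and counted per gene with HTSeq. The submitters' processing notes name CASAVA 1.8.2, Bowtie, HTSeq, DESeq and mm9. Counting options and the annotation version are not given in the sources used here, and without strand the reads of overlapping and antisense genes cannot be told apart. Only Ensembl gene rows were used (37991, of which 37205 matched a symbol in GENCODE vM1), and HTSeq's summary rows were left out of library sizes.

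Groups and replicate numbers came from the sample titles. Genes were filtered with filterByExpr, scaled by TMM and fitted in edgeR 4.0.16 (R 4.3.3) by quasi-likelihood with 1 coefficient for each stage over all 6 libraries, and malignant was compared with premalignant (two-sided, Benjamini-Hochberg FDR of at most 0.1 over all 16683 genes and a log2 fold change of 0.5 or more in size). CPM is the count relative to the TMM-scaled library size, and log2 CPM for library and chromosome differences used a prior count of 2. A level of 3 counts was 0.0526 to 0.108 CPM. Total counts per library were 51065861 and 31283803 (wild type), 53453055 and 34543633 (premalignant) and 52996457 and 30031100 (malignant), in replicate order. DESeq2 1.42.0, other scalings and filters, a replicate block and leaving out each library were the alternatives, and fits with chromosome medians removed, without chromosome 14 or without immunoglobulin genes were added after seeing the data. The fit was tested on simulated counts with 100 genes changed by a log2 of 1 and 100 by 2. There edgeR recovered 19% and 65% of them, and 14 of its 98 calls were unchanged genes. DESeq2 recovered 56% and 83%, and 124 of its 263 calls were unchanged genes. A gene that was not called may therefore still have changed. Each simulated gene had the same spread at every stage, whereas replicates of these data differed most at the malignant stage. The rates above hold for equal spread only.

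Genes were kept where both malignant libraries lay on the same side of both premalignant ones. Named genes were Myc, the 15 largest rises and falls among called protein-coding genes with a mean of 10 CPM or more in their higher stage, up to 5 called genes and the first 2 genes of each list, genes near 0 in one stage and up to 5 of the most abundant called genes per direction. Other genes named in the text, among them Cd79a, Ebf1, Pax5, Vpreb1, Igll1, Rag1, Rag2, Ighm, Cd74, Ccnd3, Ccnb1, S100a8, Trp53 and Cdkn2a, were chosen after their values were seen unless that rule also gave them. The members, the gene lists and the motifs were chosen with earlier results of these data known. Promoter windows were read from the NCBIM37 genome (mm9) at the annotated gene starts. Python 3.11.15, pandas 2.3.3 and matplotlib 3.10.9 were used for the summaries and figures. Some genes are not reported here.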

Additional observations from a re-analysis of the deposited data

How the results depend on the processing

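Of 16683 genes, 1031 were called (623 higher, 408 lower). DESeq2 called 2113 (1142 higher, 971 lower; 2104 meeting the condition on the libraries), no filter on low counts gave 2810 (1438, 1372; 2577), only the 4 premalignant and malignant libraries 258 (194, 64), and an FDR of at most 0.05 gave 407 (261, 146). Leaving out each replicate in turn gave 0 to 3803 calls, 0 to 1789 higher and 0 to 2014 lower, of which 0 to 3803 met the condition, 47.0% to 71.8% were higher, and 8519 to 14133 genes met the condition. The edgeR count of 0 followed the removal of either premalignant library, with 1486 and 1713 genes at an unadjusted p under 0.05. Calls were 253 and 277 without wild type replicate 1 and 2, and 2676 and 3803 without malignant replicate 1 and 2. The share higher was 60.4%, against 49.7% with upper-quartile scaling and 75.2% with the 4 libraries. Each fit without 1 replicate held a single library of that stage, so its spread came from the other stages. DESeq2 gave no adjusted p for 1941 genes, 3 of the genes followed below among them.

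Replicate numbers were shared by the stages, but no source says that they mark a litter or day. Deviations from the group means correlated across genes at 0.509 (wild type and premalignant), 0.186 (wild type and malignant) and 0.257 (premalignant and malignant), with only 2 numbers. With a replicate block 940 genes were called, 525 higher and 415 lower, and 817 were among the 1031.

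The gap between raised and other chromosomes was 0.456 in malignant library 1 and 0.428 in malignant library 2, 0.532 and 0.497 with genes of at least 10 CPM, and 0.471 for malignant library 1 against premalignant library 2 alone. Of the 166 called genes followed through the alternatives, 90 were not called with the 4 libraries, 72 at an FDR of 0.05, 19 with the block, 16 with chromosome medians removed and 11 with upper-quartile scaling. None of them changed direction, which the condition on the libraries largely fixed in advance. Of uncalled genes, Cdkn2a changed sign, with log2 fold changes of 0.13 without premalignant replicate 2 and -4.07 to 0.86 over all such fits, as did Ighm, with -0.30 (without malignant replicate 2) to 0.50. The cause of these changes was not tested, and 2 animals a stage limit every estimate of spread.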

Other observations

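These genes were chosen after their values were seen, among stable calls outside the rule for named genes, so their values are a description. Fcgr2b, the inhibitory Fc receptor, was at 35.1 and 35.9 CPM in premalignant and 274 and 163 CPM in malignant libraries (log2 2.62 ± 0.26, edgeR FDR 0.0147). Bank1, a B-cell scaffold protein, was at 20.9 and 31.7 and then 140.2 and 167 CPM (log2 2.55 ± 0.31, edgeR FDR 0.0225). Btla, an inhibitory receptor, was at 29.3 and 32.3 and then 86.7 and 75.5 CPM, and Il6ra, the interleukin-6 receptor chain, at 5.91 and 9.37 and then 59.4 and 60.5 CPM. In all 4 genes both malignant libraries lay above both premalignant ones. The pattern receptors Tlr2, at 2.76 and 3.34 and then 12.1 and 11.4 CPM, and Tlr9, at 18.1 and 17.6 and then 42.95 and 46.6 CPM, moved alongside Tlr1 and Irf5, a factor that acts downstream of them, at 57.9 and 68.4 and then 134 and 171 CPM.

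Membrane and calcium-binding proteins formed another group with S100a6. Anxa2 was at 10.5 and 9.399 and then 59.5 and 68.97 CPM, and its partner S100a10 at 124 and 139.5 and then 359 and 492 CPM. Ahnak, a very large scaffold that binds this complex, was at 55.1 and 67.1 and then 676 and 1084 CPM (log2 3.85 ± 0.30, edgeR FDR 0.00985). Lgals3 (galectin-3) was at 5.72 and 5.24 and then 43.03 and 43.7 CPM, and Crip1 at 185 and 203 and then 694 and 593 CPM. Each of these 5 was higher in both malignant libraries.

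Lower in both malignant libraries were Aim2, a sensor of cytosolic DNA, at 23.6 and 30.8 and then 7.11 and 5.59 CPM (log2 -2.09 ± 0.24, edgeR FDR 0.0205), and Plcg1, a phospholipase of receptor signalling, at 33.6 and 35.9 and then 7.82 and 8.89 CPM. The clock gene Arntl was at 86.4 and 74.8 and then 32.5 and 31.9 CPM, and Bhlhe41, a clock repressor that was higher, at 25.4 and 30.1 and then 145 and 164 CPM. Ccng2, a cyclin of arrested cells, was at 151 and 142 and then 52.8 and 45.4 CPM (edgeR FDR 0.0165).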
